A study of Homo sapiens with 12 samples.

Results

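A set of 26 genes was examined that differed between wild-type (WT) ARID1A and no ARID1A but lay near the no-ARID1A level with ARID1A lacking IDR1b (ΔIDR1b). All cells were HEK-293T, a human embryonic kidney line, with ARID1A knocked out. They received an empty vector (no ARID1A), WT ARID1A or ΔIDR1b ARID1A, and in addition EWS-FLI1 or a second empty vector. These 6 groups held 2 polyA RNA libraries each, 12 in all, and per the labels, 2 µg of the EWS-FLI1 plasmid was transfected and growth went on for 48 h, while the labels do not say how or when the ARID1A constructs were introduced. The labels state neither whether the knockout line was 1 clone nor whether repeats were separate cultures, so p-values measure only the spread between these libraries. Expression is in CPM, the deposited counts scaled to an equal library total. Genes were taken whose mean was at least 3 CPM over the 12 libraries and whose log2(group mean CPM + 0.5) moved by at least 0.8 between no ARID1A and WT, with 1 sign, under both vectors. In addition, ΔIDR1b had to lie less than 0.3 from no ARID1A under both vectors. The introduced genes ARID1A and FLI1, and EWSR1, were not considered. Of 13488 genes with a mean of at least 3 CPM, out of 60645 gene names, 387 (2.87%) passed the WT limit under both vectors and 26 (0.193%) also passed the ΔIDR1b limit, which 34.7% of all genes met. Of the 26, 4 were higher and 22 lower with WT.

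ARID1A is a subunit of the canonical BAF form of the SWI/SNF complex, which uses ATP to slide and evict nucleosomes and so opens enhancers and promoters to transcription factors. Its ARID domain contacts DNA, and long stretches of it are intrinsically disordered, that is, without a fixed fold. IDR1b is a segment of one such region. EWS-FLI1 is the fusion protein of Ewing sarcoma, which joins the N-terminal part of EWSR1 to the DNA-binding ETS domain of FLI1 and recruits BAF to GGAA repeats. The study asked what IDR1b does in transcription driven by EWS-FLI1.

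Library totals ran from 11702251 to 14445379 counts. ARID1A was counted at 145 to 160 CPM in the no-ARID1A libraries, 1765 to 2216 in WT and 2748 to 3057 in ΔIDR1b, so the 2 forms were not at equal RNA levels, and the part of that level in the values below was not tested. FLI1 stood at 0 to 0.155 CPM under the empty vector and, under EWS-FLI1, at 1670 to 1807 without ARID1A, 3350 to 3519 in WT and 1999 to 2028 in ΔIDR1b. The RNA level of the fusion thus differed between the ARID1A states and was highest in WT, and its part in the values below was not tested. Of 10 HEK-293T markers, 8 were at 1 CPM or more in every library, whereas SOX11 had 0 counts and NEFM 2 counts in all libraries together. The summed level of 19 markers of other cell types was 109 to 136 CPM in no ARID1A and WT and 162 to 171 in ΔIDR1b. COL1A1 alone gave 69.9 to 111 CPM of that sum, the blood markers PTPRC and CD3E had 3 and 2 counts in all libraries together, and the part of these genes in the values below was not tested.

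The rule fixed the size and the sign of these differences, so they are given as a description, with no test. The WT and ΔIDR1b differences also share the no-ARID1A libraries. In the 4 higher genes, WT minus no ARID1A ran from 0.81 to 1.14 log2 units under the empty vector and from 1.01 to 1.09 under EWS-FLI1, which is 1.77 to 2.21 times and 2.05 to 2.17 times the CPM without ARID1A. The 22 lower genes had medians of -0.95 and -0.98, and their WT level was 0.492 and 0.490 times that without ARID1A at the median. ΔIDR1b minus no ARID1A had medians of 0.06 and 0.20 in the higher genes and -0.07 and -0.08 in the lower genes. In bulk RNA, fewer cells that express a gene and less of its RNA per cell cannot be told apart. The limits cut through a continuous range of values. TRIM45 (smaller WT size 0.80) and NHLH2 (0.81) lay just inside the WT limit, while KCTD13-DT (0.79) and PAQR6 (0.78) lay just outside. METTL27 was just inside the ΔIDR1b limit with a larger ΔIDR1b size of 0.296 and TRIM66 with 0.286, against 0.303 for ENSG00000288880 and 0.336 for CHDH outside. The lowest mean levels inside were those of METTL27 (3.13 CPM) and ENSG00000260077 (3.19), and C3orf62 (2.95) and ENSG00000280254 (2.79) fell just short.

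Which genes passed the ΔIDR1b and WT limits depended on how libraries were scaled. On library totals, the median of ΔIDR1b minus no ARID1A over all 13488 genes was 0.14 under both vectors, against -0.00 and 0.01 for WT. With library sizes scaled by TMM (trimmed mean of M-values) the ΔIDR1b medians were 0.03 and 0.04 and the WT medians 0.05 and 0.04. A gene at 0 on library totals thus lay 0.14 below the median gene with ΔIDR1b. TMM scaling gave 18 genes, 15 of them among the 26, and the 4 higher and 22 lower genes all kept the direction of their WT difference. ERRFI1 was lost because its ΔIDR1b difference under the empty vector moved from -0.23 to -0.34. AMH (-0.799), NHLH2 (-0.774), TRIM45 (-0.764) and GNG12-AS1 (-0.778) instead fell short of the WT limit under EWS-FLI1, with ΔIDR1b still inside its limit. METTL27 fell outside both limits. The same 3 genes, ERRFI1, C21orf58 and ENSG00000286388, were the ones kept in all 12 lists made by leaving out 1 library, and the only ones in both lists made from 1 repeat alone.

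WT libraries stood apart from the no-ARID1A libraries under both vectors in 26 of 26 genes, which the rule largely fixes (41.3% of all 13488 genes did so). They stood apart from both other states under both vectors in 25 of 26 (21.2% of all genes), the exception being METTL27. All 4 WT libraries lay on 1 side of the other 8 in 24 of 26 (6.49% of all genes), the exceptions being METTL27 and the pseudogene AGAP13P. ΔIDR1b libraries stood apart from the no-ARID1A libraries under both vectors in 0 of 26, against 64.9% of all genes. They did so in 4 of 26 under the empty vector, against 76.6% of all genes, and in 10 of 26 under EWS-FLI1, against 76.9%. All of these counts use the contrasts of the rule and nothing is read from them.

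Higher with WT were the signalling regulators ERRFI1 and TRIB1, the transcription factor MAFF and the long noncoding RNA ENSG00000271755. ERRFI1 (chromosome 1, 8004404 to 8026309, minus strand, GRCh38 patch 13 as are all gene positions here) encodes MIG6, a feedback inhibitor that binds the kinase domain of the EGF receptor and is itself induced by receptor signalling. ERRFI1 stood at 90.8 and 93.9 CPM without ARID1A, 215 and 193 with WT and 75.1 and 82.7 with ΔIDR1b under the empty vector. Under EWS-FLI1, ERRFI1 stood at 80.05 and 90.4 CPM without ARID1A, 198 and 166 with WT and 89.3 and 75.95 with ΔIDR1b. The 4 WT libraries were all above the other 8, at 2.21 and 2.13 times the mean without ARID1A. ΔIDR1b lay slightly below no ARID1A under the empty vector, with no overlap, and overlapped it under EWS-FLI1.

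TRIB1 (chromosome 8, 125430358 to 125438403, plus strand) encodes a Tribbles pseudokinase, a scaffold that brings the ubiquitin ligase COP1 to its substrates and binds MEK1. TRIB1 stood at 46.2 and 38.05 CPM without ARID1A, 75.2 and 73.6 with WT and 43.98 and 49.5 with ΔIDR1b under the empty vector. Under EWS-FLI1, TRIB1 stood at 37.9 and 39.9 CPM without ARID1A, 77.6 and 83.2 with WT and 44.3 and 46.5 with ΔIDR1b. WT was 1.77 and 2.07 times no ARID1A under the empty vector and EWS-FLI1. Its 4 WT libraries did not overlap the other 8, and under EWS-FLI1 both ΔIDR1b libraries were above both no-ARID1A libraries, by a log2 difference of 0.22.

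MAFF (chromosome 22, 38200767 to 38216507, plus strand) encodes a small MAF protein, a basic leucine zipper factor without a transactivation domain that pairs with CNC factors and acts as an early response gene. MAFF stood at 19.7 and 15.2 CPM without ARID1A, 34.2 and 29.97 with WT and 17.1 and 19.6 with ΔIDR1b under the empty vector. Under EWS-FLI1, MAFF stood at 11.95 and 14.8 CPM without ARID1A, 25.9 and 28.9 with WT and 15.4 and 17.1 with ΔIDR1b. WT was 1.84 and 2.05 times no ARID1A, and its 4 libraries were above the other 8. The ΔIDR1b difference was 0.07 under the empty vector, where the libraries overlapped, and 0.27 under EWS-FLI1, where they did not. MAFF shares 5.81% of its exonic bases with exons of PLA2G6 on the opposite strand, and no strand option was set in counting, so fragments there cannot be assigned to either gene. PLA2G6, a phospholipase, differed by -0.71 and -0.93 with WT, in the opposite direction to MAFF, and by -0.59 and -0.72 with ΔIDR1b.

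ENSG00000271755 (chromosome 6, 27404010 to 27406964, minus strand), annotated as a long intergenic noncoding RNA, had the lowest level per kilobase of the 4. ENSG00000271755 stood at 3.90 and 5.07 CPM without ARID1A, 8.38 and 9.39 with WT and 5.12 and 4.18 with ΔIDR1b under the empty vector. Under EWS-FLI1, ENSG00000271755 stood at 5.98 and 4.96 CPM without ARID1A, 13.05 and 10.7 with WT and 7.76 and 4.81 with ΔIDR1b. WT was 1.98 and 2.17 times no ARID1A. The highest ΔIDR1b library under EWS-FLI1 came close to the lowest WT library, 7.76 against 8.38 CPM.

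Promoter sequences are shown for 3 protein-coding genes among those with the largest differences, 1 higher (ERRFI1) and 2 lower with WT (FOXN4 and ZBED8, which RefSeq names FAM200C), to let the upstream sequence of a gene higher with WT be read beside those of genes lower with WT. L3HYPDH, whose difference was larger than those of FOXN4 and ZBED8, is not shown because 34 of its upstream bases lie outside annotated exons, and MAFF because 0 do. The sequences are the 250 bases before the start site from RefSeq (GRCh38.p14), written 5′ to 3′ on the gene's strand, and the capitals mark the only motif found of those searched, GATTGG of the CCAAT box in ERRFI1 and CATTCC, the TEAD motif GGAATG read on the other strand, in ZBED8. They lie on the minus strand at chr1:8026310-8026559, chr12:109309285-109309534 and chr5:160400055-160400304.
ERRFI1: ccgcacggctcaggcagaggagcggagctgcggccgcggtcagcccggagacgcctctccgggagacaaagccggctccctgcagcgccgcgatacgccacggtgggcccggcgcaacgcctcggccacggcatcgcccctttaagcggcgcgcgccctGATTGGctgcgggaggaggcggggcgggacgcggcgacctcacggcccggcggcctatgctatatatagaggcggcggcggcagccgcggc
FOXN4: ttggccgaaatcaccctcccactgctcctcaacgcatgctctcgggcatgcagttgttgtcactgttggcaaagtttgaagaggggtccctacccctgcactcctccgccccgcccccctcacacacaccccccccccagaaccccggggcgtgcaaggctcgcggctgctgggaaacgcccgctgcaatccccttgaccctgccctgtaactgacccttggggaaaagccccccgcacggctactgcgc
ZBED8: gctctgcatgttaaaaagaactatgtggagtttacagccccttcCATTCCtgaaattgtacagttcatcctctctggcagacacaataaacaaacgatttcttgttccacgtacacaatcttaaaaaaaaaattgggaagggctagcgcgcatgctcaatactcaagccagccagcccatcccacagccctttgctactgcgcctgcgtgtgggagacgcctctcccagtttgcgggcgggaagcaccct

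RefSeq windows of 250 bases before to 50 after the start site were found for 16 of the 26 genes and for 10331 of all genes with a mean of at least 3 CPM. On both strands, the AP-1 motif TGANTCA was in 1 of 16 windows (NHLH2), against 3.99% of all windows. The TEAD motif GGAATG was in 3 (ZBED8, C21orf58 and ZNF778-DT), against 10.3%, and GGAAGGAA, a pair of GGAA units, in 1 (GNG12-AS1), against 3.16%. The ETS motif CCGGAAGT, which contains a GGAA core but cannot hold GGAAGGAA, was in 0, against 8.93%. TATAAA was in 2 (C21orf58 and GNG12-AS1), against 5.07%, and the CCAAT box, searched as CCAATC and GATTGG, in 2 (ERRFI1 and METTL27), against 19.9%. The median GC content was 64.2% in the 16 windows and 66.0% in all. A match is a description of these letters and not a bound site.

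Among the 22 genes lower with WT, 11 were protein-coding. FOXN4 (chromosome 12, 109277978 to 109309284, minus strand) encodes a forkhead factor of retinal progenitors and spinal interneurons. FOXN4 stood at 11.7 and 10.1 CPM without ARID1A, 5.75 and 4.66 with WT and 11.4 and 11.6 with ΔIDR1b under the empty vector. Under EWS-FLI1, FOXN4 stood at 11.7 and 11.3 CPM without ARID1A, 4.76 and 6.16 with WT and 12.5 and 7.87 with ΔIDR1b. WT was 0.478 and 0.475 times no ARID1A and its libraries did not overlap the other 8, although the ΔIDR1b libraries under EWS-FLI1 were spread from 7.87 to 12.5 CPM. NHLH2 (chromosome 1, 115836377 to 115843917, minus strand), a neuronal basic helix-loop-helix factor, stood at 10.2 to 14.4 CPM in the 4 WT libraries and 18.4 to 25.4 in the other 8. CSPG5 (chromosome 3, 47562238 to 47580792, minus strand) encodes neuroglycan C, a chondroitin sulfate proteoglycan of the brain. CSPG5 stood at 16.8 and 14.98 CPM without ARID1A, 6.99 and 9.03 with WT and 17.9 and 12.2 with ΔIDR1b under the empty vector. Under EWS-FLI1, CSPG5 stood at 20.5 and 17.9 CPM without ARID1A, 7.64 and 11.96 with WT and 15.97 and 20.9 with ΔIDR1b. The groups came within a small distance of each other, since the highest WT library was at 11.96 CPM and the lowest of the other 8 at 12.2.

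AMH (chromosome 19, 2249309 to 2252073, plus strand) encodes anti-Müllerian hormone, a TGF-beta family ligand that makes the Müllerian ducts regress. AMH stood at 33.2 and 42.2 CPM without ARID1A, 17.9 and 19.5 with WT and 41.4 and 31.4 with ΔIDR1b under the empty vector. Under EWS-FLI1, AMH stood at 37.3 and 43.4 CPM without ARID1A, 16.00 and 28.8 with WT and 34.4 and 42.6 with ΔIDR1b. WT was 0.496 and 0.555 times no ARID1A, and 1 WT library under EWS-FLI1, at 28.8 CPM, was near the lowest of the other 8, at 31.4. BRME1 (chromosome 19, 13882348 to 13906452, minus strand) encodes a partner of the BRCA2-binding meiotic recombination machinery. BRME1 stood at 6.28 and 6.61 CPM without ARID1A, 3.25 and 3.30 with WT and 8.07 and 6.23 with ΔIDR1b under the empty vector. Under EWS-FLI1, BRME1 stood at 6.40 and 5.81 CPM without ARID1A, 2.38 and 2.13 with WT and 7.83 and 6.92 with ΔIDR1b. WT was 0.508 and 0.369 times no ARID1A, with no overlap in either vector. BRME1 shares 6.56% of its exonic bases with CC2D1A on the opposite strand. TRIM66 (chromosome 11, 8612037 to 8682694, minus strand), a TIF1-family protein known from testis, stood at 13.7 to 17.1 CPM in the 4 WT libraries and 23.9 to 32.7 in the other 8. Its ΔIDR1b libraries lay below the no-ARID1A libraries under EWS-FLI1, by a log2 difference of 0.29, close to the limit.

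The other protein-coding genes were of mixed function. C21orf58 (chromosome 21, 46300181 to 46323875, minus strand), whose product is little described, had the highest mean CPM of the 22, not corrected for length. C21orf58 stood at 59.7 and 51.1 CPM without ARID1A, 20.1 and 27.8 with WT and 54.1 and 47.4 with ΔIDR1b under the empty vector. Under EWS-FLI1, C21orf58 stood at 58.1 and 56.2 CPM without ARID1A, 29.05 and 30.3 with WT and 51.7 and 50.8 with ΔIDR1b. The WT libraries were 0.433 and 0.519 times no ARID1A and did not overlap the rest, and ΔIDR1b was at 0.917 and 0.897 times. L3HYPDH (chromosome 14, 59460363 to 59484408, minus strand) encodes trans-L-3-hydroxyproline dehydratase, an enzyme of hydroxyproline breakdown. L3HYPDH stood at 16.97 and 20.7 CPM without ARID1A, 9.83 and 8.03 with WT and 18.5 and 16.02 with ΔIDR1b under the empty vector. Under EWS-FLI1, L3HYPDH stood at 18.4 and 17.2 CPM without ARID1A, 10.4 and 6.75 with WT and 22.1 and 18.7 with ΔIDR1b. WT was 0.474 and 0.481 times no ARID1A with no overlap, and ΔIDR1b lay above no ARID1A under EWS-FLI1 without overlap. Of its exonic bases, 8.02% are shared with genes on the same strand. ZBED8 (chromosome 5, 160393148 to 160400054, minus strand) encodes a BED-type zinc finger protein derived from a DNA transposon. ZBED8 stood at 13.1 and 14.3 CPM without ARID1A, 6.23 and 7.46 with WT and 13.7 and 18.2 with ΔIDR1b under the empty vector. Under EWS-FLI1, ZBED8 stood at 17.00 and 13.7 CPM without ARID1A, 7.50 and 7.92 with WT and 17.7 and 18.6 with ΔIDR1b. It was lower with WT at 0.501 and 0.503 times no ARID1A and higher with ΔIDR1b at 1.17 and 1.18 times, inside the limit of the rule.

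TRIM45 (chromosome 1, 117111060 to 117122587, minus strand), a RING-type ubiquitin ligase, stood at 16.9 to 22.3 CPM in the 4 WT libraries and 28.5 to 42.3 in the other 8. METTL27 (chromosome 7, 73834590 to 73842516, minus strand), a putative methyltransferase of the Williams-Beuren region, had the lowest mean CPM of the 26, not corrected for length. METTL27 stood at 4.12 and 4.26 CPM without ARID1A, 1.25 and 2.29 with WT and 3.10 and 3.72 with ΔIDR1b under the empty vector. Under EWS-FLI1, METTL27 stood at 3.45 and 4.70 CPM without ARID1A, 1.23 and 2.93 with WT and 2.74 and 3.72 with ΔIDR1b. The higher WT library under EWS-FLI1 lay above the lower ΔIDR1b library, the only overlap of WT with another state within a vector among the 26 genes, and the counts behind these values were 17 to 58 per library.

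Long noncoding RNAs made up 8 of the 22 lower genes, and 1 further gene, ENSG00000286388, matched no entry of the GENCODE 29 annotation. ENSG00000286388 (chromosome 5, 1345197 to 1350786, plus strand) starts within 1 kb of CLPTM1L on the opposite strand and had the largest negative difference by the smaller of its 2 sizes. ENSG00000286388 stood at 10.5 and 10.1 CPM without ARID1A, 3.67 and 4.52 with WT and 10.5 and 11.3 with ΔIDR1b under the empty vector. Under EWS-FLI1, ENSG00000286388 stood at 13.3 and 10.6 CPM without ARID1A, 4.76 and 3.37 with WT and 12.5 and 10.1 with ΔIDR1b. WT was 0.397 and 0.340 times no ARID1A, and ΔIDR1b 1.06 and 0.946 times. ZNF778-DT (chromosome 16, 89215160 to 89217653, minus strand) is the divergent transcript of the zinc finger gene ZNF778. ZNF778-DT stood at 5.63 and 4.11 CPM without ARID1A, 2.63 and 2.15 with WT and 4.11 and 4.33 with ΔIDR1b under the empty vector. Under EWS-FLI1, ZNF778-DT stood at 4.55 and 5.30 CPM without ARID1A, 1.66 and 1.39 with WT and 4.49 and 4.37 with ΔIDR1b. WT was 0.491 and 0.310 times no ARID1A, on 19 to 78 counts per library.

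PRKAR2A-AS1 (chromosome 3, 48847572 to 48851981, plus strand), antisense to a regulatory subunit gene of protein kinase A, stood at 1.15 to 2.15 CPM in the 4 WT libraries and 3.34 to 5.73 in the other 8. LINC02604 (chromosome 7, 66902857 to 66906297, plus strand) stood at 7.55 to 9.54 CPM in the 4 WT libraries and 12.6 to 18.4 in the other 8. GNG12-AS1 (chromosome 1, 67832293 to 68202987, plus strand) stood at 3.17 to 4.62 CPM in the 4 WT libraries and 5.69 to 8.08 in the other 8. These 3 RNAs were lower in every WT library than in any other library, and LINC02604 was in addition lower with ΔIDR1b than without ARID1A under EWS-FLI1, by a log2 difference of 0.26. ENSG00000260077, ENSG00000213062 and ENSG00000214770 had means of 3.19, 3.97 and 3.26 CPM, and ENSG00000260077 came down to 9 counts in its lowest library. Of the exonic bases of ENSG00000214770, 15.6% are shared with ESR2, the largest overlap among the 26. The 2 pseudogenes were SDAD1P1 (chromosome 8, 26375913 to 26382988, minus strand), at 1.94 to 3.53 CPM in the 4 WT libraries and 4.73 to 8.55 in the other 8, and AGAP13P (chromosome 10, 46816516 to 46837947, plus strand), at 3.75 to 8.60 CPM in the 4 WT libraries and 7.95 to 12.9 in the other 8. Pseudogenes can share reads with their parent genes, so the counts of SDAD1P1 and AGAP13P are uncertain.

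The rule used neither gene type nor position. Of the 26 genes, 14 were protein-coding (53.8%, against 89.3% of the 13488), 9 were long noncoding (34.6%, against 6.68%), 2 were pseudogenes (7.69%, against 3.02%) and 1 was not matched. Among all 280 genes past the WT limit downward 41.4% were long noncoding, and among the 22 lower genes of the set 36.4%. Over all 901 long noncoding genes the median WT difference was -0.36 and -0.41 log2 units, and the median ΔIDR1b difference -0.19 and -0.29. The 12049 protein-coding genes had medians of 0.02 and 0.03 with WT and 0.17 and 0.17 with ΔIDR1b, on library totals. The 26 genes had low counts, with a median of 9.81 CPM against 33.1 over all 13488, and short, with a median exonic length of 3590.5 against 5338 bases and a gene span of 9067 against 32417.5 bases. Exonic GC content was alike at medians of 51.3% (25 genes with a value) and 49.9%. Chromosome 1 held 5 of the 26 (19.2%, against 10.2% of all). Per kilobase of exon, the level without ARID1A under the empty vector ran from 0.331 CPM for ENSG00000213062 to 14.6 for AMH among the lower genes, and from 1.52 for ENSG00000271755 to 22.1 for ERRFI1 among the higher.

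Neighbouring genes were read beside the 26. For 12 of them (46.2%) an annotated gene on the opposite strand started within 1 kb, against 35.05% of the 13482 genes at 1 locus, and for 10 that neighbour had a mean of at least 3 CPM. Of the 9 long noncoding genes 5 had such a neighbour (55.6%), against 39.6% of 899 long noncoding genes. None of the 15 neighbouring or overlapping genes at that level passed the WT limit under both vectors. The 10 head-to-head neighbours had WT differences from -0.35 (PCNT) to 0.56 (ZNF778) under the empty vector and from -0.43 to 0.82 under EWS-FLI1, with medians of 0.01 and 0.11. ZNF778 was thus higher while its divergent transcript ZNF778-DT was lower, at log2 differences of 0.56 and 0.82 against -0.89 and -1.42, and with ΔIDR1b ZNF778 was higher by 1.69 under both vectors. PCNT, which encodes the centrosome protein pericentrin, differed by -0.35 and -0.43 with WT, in the same direction as its neighbour C21orf58. CLPTM1L differed by -0.03 and 0.19 and JKAMP, the neighbour of L3HYPDH, by 0.19 and 0.16.

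The 26 genes were looked up in 19 lists of pathways, complexes and cell programmes with 660 genes, of which 549 had a mean of at least 3 CPM. MAFF alone was in any, the list of AP-1 and immediate early genes, which encode factors switched on within minutes of a stimulus. Of the 25 other genes of that list tested, 9 were higher and 8 lower with WT under the empty vector (edgeR quasi-likelihood test, adjusted p under 0.05, against 10.4% and 8% of all 19001 genes), and 7 and 5 under EWS-FLI1 (7.27% and 6.7% of 19183). With ΔIDR1b 8 were higher and 14 lower under the empty vector (20.2% and 20.2% of all genes), and 6 and 13 under EWS-FLI1 (16.4% and 16.6%). The median log2 fold change of the list was 0.01 and 0.01 with WT and -0.52 and -0.58 with ΔIDR1b, where the medians of all genes were -0.01 and -0.01, and 0.01 and 0.02. FOS, the partner of JUN in AP-1, fell by 1.45 with WT and by 3.37 with ΔIDR1b under the empty vector (SE 0.09 and 0.10, adjusted p = 7.55e-13 and 1.92e-21, edgeR quasi-likelihood test). EGR1, a serum-response zinc finger factor, rose by 0.98 and 1.47 there (SE 0.16 and 0.16, adjusted p = 6.73e-05 and 9.90e-09). The other small MAF gene of the list, MAFK, rose with WT by 0.55 under the empty vector (SE 0.10, adjusted p = 3.65e-04, edgeR quasi-likelihood test). MAFK differed with WT by 0.43 under EWS-FLI1 (SE 0.14, adjusted p = 0.0539, edgeR quasi-likelihood test). With ΔIDR1b MAFK rose by 0.31 under the empty vector (SE 0.10, adjusted p = 0.0198) and differed by -0.01 under EWS-FLI1 (SE 0.14, adjusted p = 0.95). FOS, EGR1 and MAFK were chosen after their values were seen.

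ERRFI1 and TRIB1 act on receptor tyrosine kinase and ERK signalling, and a list of ERK feedback and receptor tyrosine kinase signalling genes, which includes neither and holds ligands and receptors as well as feedback genes, was read beside them. Of its 56 genes tested under the empty vector, 15 were higher and 1 lower with WT (10.4% and 8% of all genes). Under EWS-FLI1 16 of 57 were higher and 2 lower with WT (7.27% and 6.7%). With ΔIDR1b 15 were higher and 9 lower under the empty vector (20.2% and 20.2%), and 19 and 6 under EWS-FLI1 (16.4% and 16.6%). Its median log2 fold change was 0.20 and 0.29 with WT and 0.21 and 0.36 with ΔIDR1b. More calls upward than downward with WT were not particular to this list. Under the empty vector, 12 of 20 p53 targets were higher and 1 lower, and 11 of 36 cell cycle regulators were higher and 1 lower. Other lists went the other way, such as hypoxia and glycolysis, with 3 of 28 higher and 12 lower. Of the SWI/SNF subunit genes, the partners of ARID1A, 4 of 26 were higher and 3 lower with WT under the empty vector, and 1 and 2 of 27 under EWS-FLI1, beside the same shares of all genes (10.4% and 8%, and 7.27% and 6.7%). With ΔIDR1b 3 of them were higher and 7 lower under the empty vector (20.2% and 20.2% of all genes), and 2 and 7 under EWS-FLI1 (16.4% and 16.6%). All of these counts share the no-ARID1A libraries between WT and ΔIDR1b, and the difference between the 2 forms in a list was not tested.

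The rule did not use the effect of EWS-FLI1 averaged over the 3 ARID1A states. It did limit how far that effect could differ between ΔIDR1b and no ARID1A, so the states are no separate tests. The effect was tested over 20377 genes in all 12 libraries. No gene of the 26 was called with EWS-FLI1 averaged over the 3 ARID1A states (0 of 26, edgeR quasi-likelihood test, adjusted p under 0.05, where 0.466% of all genes were called). The counts were likewise 0 without ARID1A (0.0442% of all genes), 0 in WT (0.221%) and 0 in ΔIDR1b (0.172%). DESeq2 also called 0 in each. At an unadjusted p under 0.05 there were 5 of 26 in the average (7.9% of all genes) and 1, 0 and 0 in the states (3.16%, 6.53% and 5.45%), and with DESeq2 4, 1, 0 and 0. The average log2 fold changes ran from -0.37 to 0.41 with a median of 0.02, 15 positive and 11 negative. The 5 were MAFF (-0.28, SE 0.10), AGAP13P (-0.37, SE 0.15), ENSG00000271755 (0.36, SE 0.15), SDAD1P1 (0.41, SE 0.17) and CSPG5 (0.27, SE 0.12), with adjusted p from 0.362 to 0.571 (edgeR quasi-likelihood test). For MAFF the state without ARID1A gave -0.40 (SE 0.18), WT -0.26 (SE 0.16) and ΔIDR1b -0.17 (SE 0.17). The precise values were near 0, with -0.09 (SE 0.07) for ERRFI1, -0.03 (SE 0.07) for TRIB1 and 0.11 (SE 0.08) for C21orf58.

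To measure the pattern in libraries that had not chosen the genes, the rule was applied to the 6 libraries of 1 vector and the genes tested in the 6 of the other, with no library in common. Chosen under the empty vector were 5 higher and 70 lower genes, which include the 26. The rule chose the 26 on both vectors, so the counts below describe these longer lists and are no test of the 26. In the EWS-FLI1 libraries, WT against no ARID1A was called in the chosen direction for 4 of the 5 (7.27% of all 19183 genes were called higher) and 40 of the 70 (6.7% lower), and for 0 in the opposite direction (edgeR quasi-likelihood test, adjusted p under 0.05). The median log2 fold change was 1.08 and -0.84. Without replicate 1 of no ARID1A with EWS-FLI1 the 44 calls became 21, and without its replicate 2 they became 17. ΔIDR1b against no ARID1A was called for 0 of the 5 (33% of all genes in either direction) and for 8 of the 70 lower and 2 higher, with medians of 0.09 and -0.18. ΔIDR1b was called lower than WT for 4 of the 5 (7.46%) and higher for 26 of the 70 (6.46%), a test chosen after the data were seen, and these 30 calls became 14 without either ΔIDR1b library.

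Chosen under EWS-FLI1 were 9 higher and 84 lower genes, which again include the 26 and are no test of them. In the empty-vector libraries WT was called higher than no ARID1A for 8 of the 9 (10.4% of all 19001 genes) and lower for 40 of the 84 (8%), with 0 in the opposite direction and medians of 0.86 and -0.67 on the log2 scale. The 48 calls became 27 without replicate 1 or without replicate 2 of no ARID1A, and 27 without replicate 1 of WT. ΔIDR1b against no ARID1A was called higher for 1 and lower for 4 of the 9, and lower for 7 and higher for 2 of the 84, where 40.3% of all genes were called in either direction, with medians of -0.07 and -0.13. ΔIDR1b was called lower than WT for 8 of the 9 (17.3%) and higher for 35 of the 84 (14.6%). These 43 calls fell most when either ΔIDR1b library was left out. On the scale of the rule, 4 of the 5 and 36 of the 70 genes chosen under the empty vector passed the WT limit under EWS-FLI1, and 5 of the 9 and 34 of the 84 passed it the other way round. The size was smaller in the vector that had not chosen the genes for the lower genes, with medians of -0.80 after -0.92 for those chosen under the empty vector and -0.66 after -0.93 for those chosen under EWS-FLI1.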

How the data were processed

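PolyA RNA of 12 libraries was analysed. Per the file headers, the authors counted read pairs per gene name with featureCounts 2.0.1 on GENCODE release 41 exons (GRCh38 patch 13), with both ends aligned and no strand option, so each deposited value is an unnormalized count. The aligner was STAR per the submitters' processing notes, its version not given in the sources used here. CPM, differences and limits were computed on library totals with a pseudocount of 0.5. Members and gene lists were chosen with earlier results of these data known. Tests used edgeR 4.0.16 (filterByExpr, TMM, quasi-likelihood F-test, 2-sided, 1 mean per group, Benjamini-Hochberg over all genes tested) in R 4.3.3, with DESeq2 1.42.0 as an alternative. The SE is the size of the log2 fold change over the square root of F. Genes chosen on 1 vector were tested in a fit on the 6 libraries of the other. The fits were tested on simulated data. Gene types and GC came from GENCODE release 29, promoters from RefSeq (GRCh38.p14).

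Named genes were the 12 largest rises and falls with a symbol, members of the lists, the 5 lowest and 5 highest expressed, and those nearest each limit, while other names were added after values were seen. A gene of the set counts in every total but is not reported here by name. Same-numbered repeats deviated together within each vector (r from 0.103 to 0.411 over 6 pairs of groups) and not across vectors (-0.223 to -0.009 over 9), a pairing read from the values and not stated in the labels.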

Additional observations from a re-analysis of the deposited data

How the results depend on the processing

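The rule gave 26 genes. It gave 17 with DESeq2 size factors, 43 at a mean of at least 1 CPM and 13 at 10, 40 with a WT limit of 0.7 and 4 with 1, 14 with a ΔIDR1b limit of 0.2, 16 from repeat 2 alone, and 49 with the WT limit applied in the empty vector only, the last chosen after seeing the data. Leaving out each library in turn gave 20 to 31 genes, of which 15 to 24 were among the 26, so membership near the limits rests on single libraries. Trends with exonic length left 23 genes, 15 of them shared, and with GC in addition 21 and 14. The 0 calls of EWS-FLI1 in the members were 0 under each alternative run, the replicate block over all libraries and within each vector included. Genes chosen on 1 vector and called in the other numbered 44 (tested under EWS-FLI1) and 48 (tested under the empty vector), 36 and 33 with DESeq2, and 52 and 52 with the replicate block, which changed no count of calls by more than 1.5 times. Leaving out single libraries gave 17 to 47 and 27 to 47, where a lone library is assumed to vary like the others. Low counts limit the weakest members, down to 9 counts in a library.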
